A study of Mus musculus with 114 samples.

Results

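The early response of adipocytes to a high fat diet (HFD) was examined in the 12 of 38 mice of the study that had been fed for 8 weeks. Of these, 6 had been on HFD and 6 on chow diet (CD), and the diets were compared among these mice alone. All mice were male C57BL/6J, a laboratory strain prone to obesity, and started their diet at 6 weeks of age. The HFD was the purified diet D12492, in which most energy comes from fat. CD was what the paper calls a control chow diet, D12450B or D12450K. Which of these each CD mouse received is not given in the sources used here. The RNA came from adipocytes of the perigonadal white adipose tissue, the fat around the epididymis, isolated as the cells that float after collagenase digestion, and polyadenylated RNA was sequenced. The study also sampled both diets after 20 and 34 weeks, and those mice entered the comparisons between times only.

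White adipocytes store fatty acids as triglyceride in a single large lipid droplet, release them by lipolysis when the animal fasts, and secrete hormones such as leptin and adiponectin. During overfeeding they enlarge, the matrix around them is rebuilt, and macrophages gather in the perigonadal depot of male mice around dying or very large adipocytes. PPARG and CEBPA maintain the adipocyte programme, and insulin drives glucose uptake, fat synthesis and the restraint of lipolysis.

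Levels are given in CPM, gene counts scaled to a sum of 1000000 in each mouse. CD mice had 10562845 to 12611013 gene reads and HFD mice 13201234 to 15480388, so that the HFD libraries were deeper without overlap. A single read equalled 0.0646 to 0.0947 CPM, a limit that covers counting error only, since copies made by PCR count as separate reads. The first principal component held 68.3% of the variance and separated the diets, with HFD mice 1 and 2 nearest to the CD mice, and CD mouse 6 lay apart on the second, which held 9.47%. The adipocyte label was borne out by the abundance of the 18 adipocyte identity markers, which summed to 54591 to 71046 CPM in CD and 57975 to 70373 CPM in HFD mice. Markers of other cells were present at lower levels, and those of macrophages and endothelial cells were mostly higher in HFD mice. The sums of every marker list overlapped between the diets. In HFD mice 11 of 13 tested macrophage markers and 8 of 10 endothelial markers were higher, beside 34.9% of all genes tested. The summed macrophage markers came to 428 to 1669 CPM in CD and 1110.0 to 3391 CPM in HFD mice. The summed endothelial markers came to 41.2 to 406 CPM in CD and 126 to 589.5 CPM in HFD mice. Markers of lipid-associated macrophages summed to 534 to 1003 CPM in CD and 943 to 3583 CPM in HFD mice. Those of fat progenitors and fibroblasts summed to 271 to 429.9 CPM in CD and 328 to 555 CPM in HFD mice and those of mural cells to 714 to 1034 CPM in CD and 825 to 934 CPM in HFD mice. The T and NK cell list summed to at most 47.3 CPM with 10 of 14 markers under 1 CPM in every mouse, and B cell markers to at most 1.74 CPM. Granulocyte and mast cell markers summed to at most 32.1 CPM, erythroid markers to at most 136 CPM and mesothelial markers to at most 73.0 CPM. Markers of resident-type macrophages summed to 159 to 869.6 CPM in CD and 648 to 1500.4 CPM in HFD mice. Epididymal and testicular markers stayed under 6 CPM in 11 of the 12 mice and reached 36.5 CPM in CD mouse 5. Muscle and nerve markers summed to 84.1 to 254 CPM in CD and 70.1 to 124 CPM in HFD mice. In bulk RNA, a change in the number of cells of a type and a change in the RNA per cell cannot be told apart. The part of the other cells in the results below was not tested.

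Diet moved a large share of the adipocyte transcriptome at 8 weeks. Of the 10083 genes tested, 5499 (54.5%) passed an adjusted p of 0.05 in the limma fit, 3521 (34.9%) with a higher and 1978 (19.6%) with a lower level in HFD mice. All 6 mice of one diet lay beyond all 6 of the other for 1536 genes higher in HFD (15.2%) and 743 genes lower (7.37%). Changes of at least 2-fold were fewer, with 804 called genes higher (7.97%) and 258 lower (2.56%). The direction of small changes depends on the scale. CPM fixes the sum of all reads, and the median gene was higher by 0.10 on the log2 scale in HFD mice. Size factors from the median of ratios placed it at -0.02 and called 5380 genes (53.4%), with the split turned to 2508 higher (24.9%) and 2872 lower (28.5%). With TMM size factors 2519 genes were higher and 2835 lower. No gene was called in opposite directions by CPM and by the median of ratios, and changes below are given on CPM. Every group whose counts turn with the scale is named as such. Counts in the gene lists below are to be read beside the shares over all genes tested. These were 34.9% higher and 19.6% lower on CPM and 24.9% and 28.5% with the median of ratios. Differences, also where they stand in parentheses behind a gene, are HFD minus CD on log2(CPM + 1) with the standard error. All p-values are from limma with Benjamini-Hochberg adjustment over all genes tested.

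**Figure D1:**
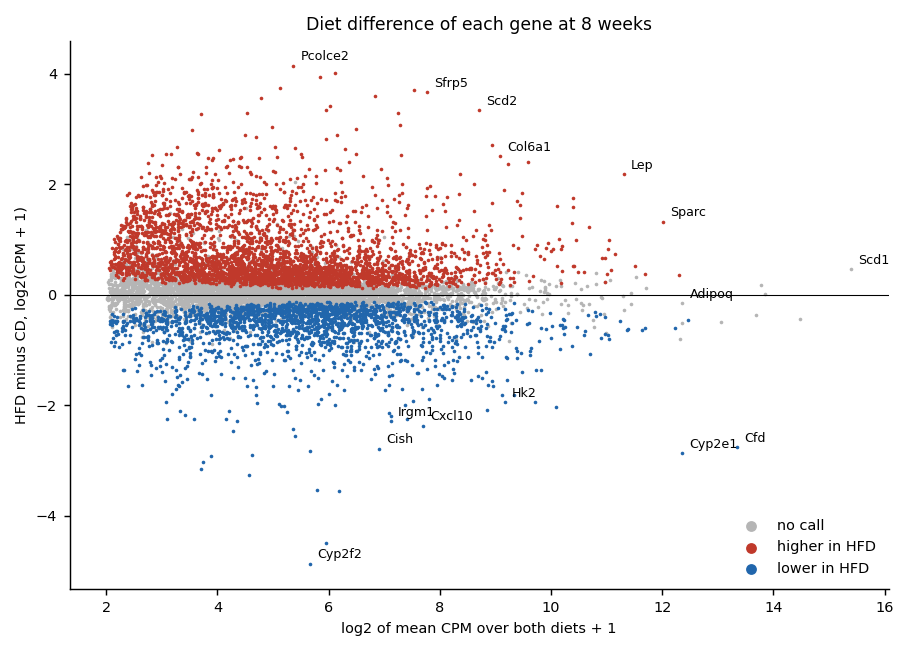
Difference between the diets at 8 weeks (HFD minus CD, log2 scale, vertical axis) against the level of each of the 10083 genes tested (log2 of the mean CPM over both diets + 1, horizontal axis). Genes called higher are red, genes called lower blue and the others grey, and the rises reach 4.15 (Pcolce2) and the falls -4.87 (Cyp2f2).

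The 10 largest rises without overlap of the diets joined matrix proteins, secreted factors and neuronal or macrophage genes. Pcolce2 (chromosome 9, 95637628 to 95695551 on GRCm38), an enhancer of the enzyme that trims procollagen, measured a median of 2.23 (range 1.12 to 5.63) CPM in CD and a median of 77.2 (range 15.7 to 138) CPM in HFD mice. The difference was 4.15 ± 0.48 (limma adjusted p = 8.86e-05). Mrc2, a receptor that takes up collagen fragments, went from a median of 4.60 (range 2.38 to 8.64) to a median of 116 (range 20.8 to 258) CPM (4.01 ± 0.55), with every HFD mouse above every CD mouse. Col16a1, a collagen that associates with fibrils, was at a median of 2.94 (range 1.63 to 5.87) CPM in CD and a median of 68.2 (range 20.5 to 98.6) CPM in HFD mice, and no mice overlapped. Slc5a7, the high-affinity choline transporter known from cholinergic nerves, rose from a median of 6.26 (range 2.22 to 8.41) to a median of 104 (range 30.0 to 179) CPM (difference 3.94 ± 0.43, limma adjusted p = 6.48e-05). Tph2, the neuronal form of tryptophan hydroxylase that starts serotonin synthesis, varied widely among HFD mice, with a median of 26.0 (range 2.58 to 133) CPM against a median of 1.18 (range 0.489 to 1.51) CPM in CD mice. Map1a, a microtubule-associated protein, and Fgf13, an intracellular member of the FGF family, rose by 3.41 ± 0.31 and 3.35 ± 0.39, and both separated the diets in all mice. Gpnmb and Mmp12, the latter the macrophage elastase, belong to the lipid-associated macrophage markers, and they rose by 3.71 ± 0.57 and 3.60 ± 0.46 beside the marker sums given above.

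Sfrp5 (chromosome 19, 42197971 to 42202252 on GRCm38), a secreted Wnt antagonist made by adipocytes, gave the smallest standard error of the 10 rises, with a median of 27.6 (range 15.1 to 48.1) CPM in CD and a median of 427 (range 233 to 529.8) CPM in HFD mice. Its lowest HFD mouse thus stood several-fold above its highest CD mouse, and the difference was 3.67 ± 0.28 (limma adjusted p = 1.55e-05).

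The largest falls without overlap were mostly enzymes and secreted proteins, and 9 of the first 10 are given. Cyp2f2 (chromosome 7, 27119955 to 27133660 on GRCm38), a cytochrome P450 of foreign compounds, fell from a median of 73.9 (range 45.9 to 204) CPM in CD to a median of 2.13 (range 0.388 to 4.55) CPM in HFD mice. Its difference was -4.87 ± 0.42 (limma adjusted p = 2.5e-05). Prg4, the lubricating proteoglycan of joint surfaces, fell from 131 ± 29.3 CPM (SD, n = 6) in CD to 11.7 ± 8.14 CPM in HFD mice. Acsm3, a medium-chain acyl-CoA synthetase, changed by -3.54 ± 0.62, Pon1, a paraoxonase, by -3.03 ± 0.40, and Itih4, an acute phase protein, by -2.92 ± 0.37, and none of these overlapped between the diets. Cyp2e1, a P450 of ethanol and ketone metabolism, was among the most abundant transcripts in CD mice, at a median of 8737 (range 6416 to 10749) CPM. In HFD mice it was at a median of 1069.6 (range 243 to 4618) CPM. Rab15, a small GTPase of endosomes, gave the smallest standard error of the group. It averaged 87.7 ± 19.7 CPM (SD, n = 6) in CD and 11.3 ± 2.20 CPM in HFD mice, a difference of -2.83 ± 0.16 (limma adjusted p = 1.07e-06). Chl1, a neural adhesion molecule, measured a median of 10.6 (range 3.26 to 227) CPM in CD mice and a median of 0.452 (range 0.129 to 1.54) CPM in HFD mice. CD mouse 6 gave the highest value.

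**Figure D2:**
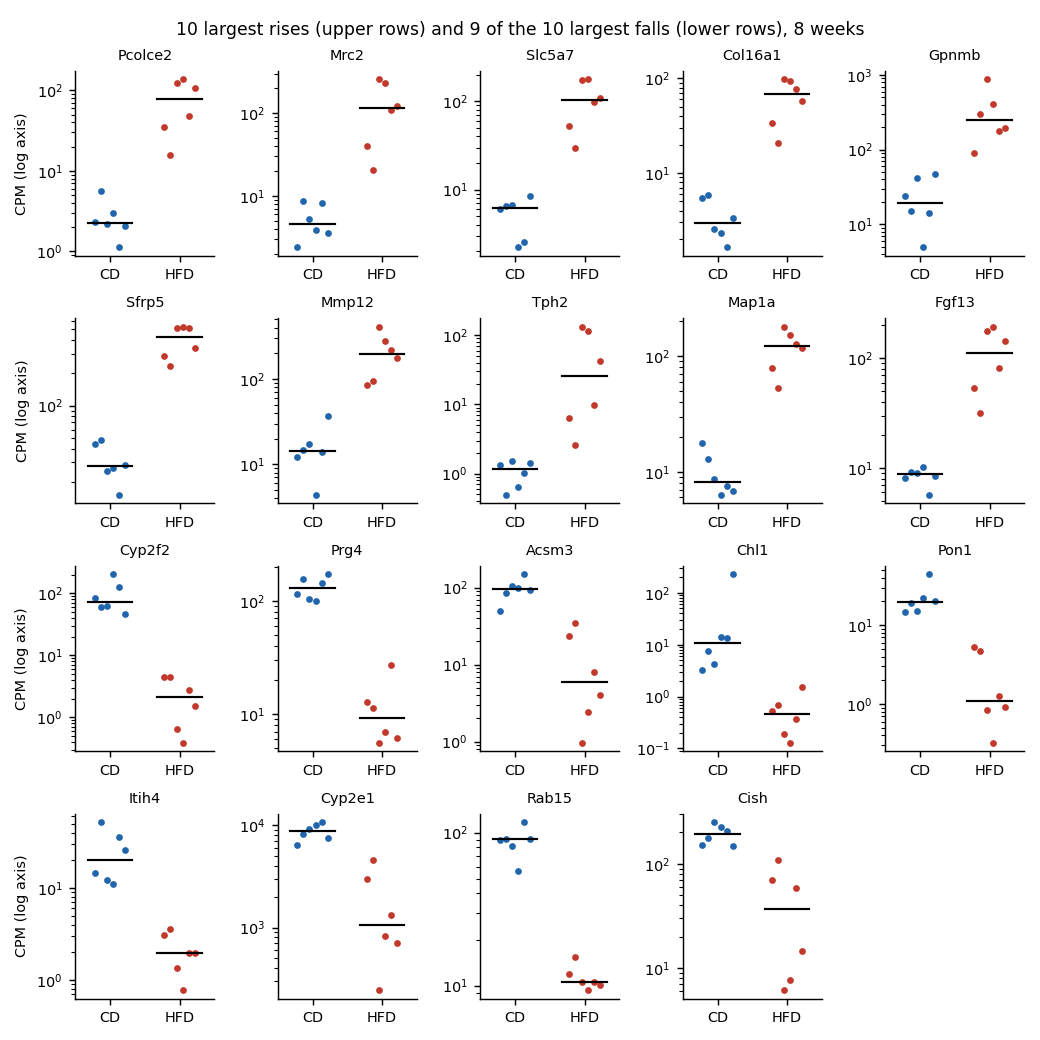
CPM of each of the 12 mice (points, logarithmic vertical axis) for the 10 largest rises and 9 of the 10 largest falls without overlap, with a bar at the median of each diet (n = 6). In every panel all HFD mice lie on one side of all CD mice.

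Cish, the tenth of the falls, encodes a suppressor of cytokine signalling that growth hormone induces through STAT5. It fell from a median of 192 (range 148 to 252) CPM in CD to a median of 36.9 (range 6.14 to 108) CPM in HFD mice (difference -2.79 ± 0.62, limma adjusted p = 0.00293), without overlap. Stat5a itself fell from a median of 124 (range 101 to 142) to a median of 60.4 (range 51.0 to 79.1) CPM (-0.92 ± 0.12). Socs1, a related suppressor, fell from a median of 44.7 (range 40.2 to 61.6) to a median of 15.3 (range 6.72 to 28.8) CPM. The promoter window of Cish, 250 bases before to 50 after the start (RefSeq, GRCm38.p6, chr9:107296409-107296708, plus strand), is shown with its 2 matches to TTCNNNGAA in capitals, letters that STAT proteins recognise.

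Cish: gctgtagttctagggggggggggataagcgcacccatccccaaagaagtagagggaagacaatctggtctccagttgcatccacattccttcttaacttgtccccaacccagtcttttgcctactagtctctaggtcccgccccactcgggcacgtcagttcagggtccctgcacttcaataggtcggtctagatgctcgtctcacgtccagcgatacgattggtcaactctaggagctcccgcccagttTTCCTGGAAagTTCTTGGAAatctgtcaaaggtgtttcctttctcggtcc

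In CPM rather than folds, and among called genes, the largest gains fell to Sparc, Lep, Ctsd, Prelp and Mmd and the largest losses to Cfd, Cyp2e1, Apoe, Cidec and mt-Rnr1. Cfd (chromosome 10, 79890853 to 79892655 on GRCm38), which encodes adipsin, the complement factor D that adipocytes secrete, measured a median of 17389.9 (range 14950.2 to 19823) CPM in CD and a median of 3016 (range 805 to 7259.7) CPM in HFD mice. The diets did not overlap. Lep (chromosome 6, 29060221 to 29073876), which encodes the satiety hormone leptin, was at a median of 723 (range 654 to 1278) CPM in CD and a median of 3799 (range 1472 to 7449.9) CPM in HFD mice. The rise was 2.18 ± 0.35 (limma adjusted p = 0.000494). Sparc, a collagen-binding matrix glycoprotein, rose from a median of 2237 (range 2000.5 to 2652) to a median of 5947 (range 3252 to 8246) CPM. Prelp, a proteoglycan that anchors basement membranes, rose from a median of 545 (range 423 to 951) to a median of 2040.4 (range 1504 to 2687) CPM. Mmd, a membrane protein named for its link to macrophage differentiation, rose by 1.22 ± 0.21 and Ctsd, the lysosomal protease cathepsin D, by 0.99 ± 0.15, again with no overlap. Apoe, a lipoprotein component (-0.60 ± 0.20), and the mitochondrial ribosomal RNA mt-Rnr1 (-1.08 ± 0.36) fell with overlap, and Cidec, which enlarges lipid droplets, fell (-0.45 ± 0.12) without it. Left out one at a time, HFD mice 3, 4 or 6 ended the call of Apoe (difference -0.55 to -0.49, limma adjusted p = 0.0557 to 0.0582) and CD mouse 3 or HFD mice 3, 4 or 6 that of mt-Rnr1 (difference -0.98 to -0.87, limma adjusted p = 0.0517 to 0.0537).

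Adipocyte identity genes moved in both directions. Of 17 tested, 5 were higher and 4 lower, or 3 and 5 with the median of ratios, and their median difference was 0.01 beside 0.10 over all genes. Pparg, the master regulator of the lineage, was at a median of 220.1 (range 174 to 267) CPM in CD and a median of 223 (range 204 to 249) CPM in HFD mice. Its difference of 0.01 ± 0.09 and that of its partner Cebpa, 0.02 ± 0.12, did not pass. Plin1, which coats the lipid droplet, differed by -0.31 ± 0.11 and passed the test (limma adjusted p = 0.0246). That call was lost without CD mouse 3 or HFD mice 3, 4 or 6, left out one at a time (difference -0.29 to -0.28, limma adjusted p = 0.0525 to 0.0562). The list of 25 tested adipocyte transcription factors leaned lower, with 13 lower and 1 higher (median -0.39). Mlxipl, which encodes the carbohydrate-sensing factor ChREBP, fell from a median of 111 (range 102 to 135) to a median of 51.7 (range 48.2 to 63.1) CPM, a difference of -1.09 ± 0.08 with a narrow spread in both diets. Ebf2, a factor of brown and beige fat, and Ppargc1a, a coactivator of mitochondrial genes, fell (-0.93 ± 0.26 and -0.84 ± 0.16), and Klf2, the one factor called higher, rose by 0.89 ± 0.29.

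Among 18 tested adipokines and secreted factors, 6 rose, 9 fell and 3 did not pass. Adipoq, which encodes adiponectin, was at a median of 5581 (range 4932 to 5892) CPM in CD and a median of 4905 (range 3959.5 to 6148) CPM in HFD mice. Its difference of -0.15 ± 0.14 did not pass (limma adjusted p = 0.368). Retn, which encodes resistin, fell (-0.58 ± 0.21) with overlap. The call of Retn was lost without any 1 of CD mice 1, 3, 4 or 5 or HFD mice 3, 4 or 5 (difference -0.58 to -0.41, limma adjusted p = 0.0556 to 0.0787). Genes that mark an expanding fat pad moved mostly one way, since 4 of 5 rose (median 1.70) and those 4 did not overlap between the diets. Mest, an imprinted gene whose level follows fat pad growth, rose from a median of 302 (range 181 to 546) to a median of 1084 (range 621 to 1328) CPM. Bmp3, a bone morphogenetic protein, rose from a median of 14.6 (range 6.02 to 21.3) to a median of 64.6 (range 38.3 to 77.5) CPM. Npr3, which clears natriuretic peptides, rose from a median of 645 (range 466 to 1021) to a median of 2069 (range 1373 to 2440.2) CPM. Nnat, another imprinted gene, differed by -0.28 ± 0.29 and did not pass.

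Lipolysis genes divided, with 4 of 12 higher and 5 lower. The beta-3 adrenergic receptor Adrb3, through which noradrenaline starts lipolysis, fell from a median of 813 (range 499.6 to 916) to a median of 416 (range 267 to 853) CPM with overlap (difference -0.67 ± 0.26, limma adjusted p = 0.0468). Its call was lost without any 1 of CD mice 2, 3, 4 or 5 or HFD mice 3, 4, 5 or 6 (difference -0.67 to -0.52, limma adjusted p = 0.0747 to 0.103). Adra1a and Adra1d, alpha-1 receptors, rose by 1.23 ± 0.17 and 0.73 ± 0.28, the latter on CPM only, and the adenylate cyclase Adcy7, well known from blood cells, by 2.15 ± 0.40. Adra1d lost its call without any 1 of CD mice 1 or 5 or HFD mice 2, 3, 4 or 6 (difference 0.65 to 0.76, limma adjusted p = 0.0557 to 0.0897). Over the 24 tested genes of adrenergic and cAMP signalling, 11 were higher and 3 lower on CPM and 7 and 4 with the median of ratios. Of the lipases, Pnpla2, which takes the first fatty acid from triglyceride, fell (-0.63 ± 0.19), Ces1d (-0.79 ± 0.25) and Ces1f (-1.70 ± 0.34). Lipe, the hormone-sensitive lipase, differed by -0.27 ± 0.13 and did not pass on CPM (limma adjusted p = 0.102, and 0.0359 with the median of ratios). Mgll, which acts on monoglycerides, rose by 0.42 ± 0.10 without overlap, Pnpla3 by 0.65 ± 0.16, and G0s2, an inhibitor of Pnpla2, by 1.19 ± 0.37. Hilpda, a hypoxia-inducible inhibitor of the same lipase, fell from a median of 213 (range 194 to 269) to a median of 99.6 (range 57.4 to 165) CPM, again without overlap. The glycerol channel Aqp7 moved from a median of 78.7 (range 60.9 to 90.4) to a median of 162 (range 128 to 176) CPM, a rise of 1.00 ± 0.11. Fabp4, the cytosolic fatty acid carrier, was at a median of 14863 (range 12727 to 16726) CPM in CD and a median of 14831 (range 13582 to 15981) CPM in HFD mice. The list of antilipolytic, nutrient and other hormone receptors gave 4 rises among 8 tested. Among them were Npr3, given above, the oxytocin receptor Oxtr (1.51 ± 0.31) and the succinate receptor Sucnr1 (0.61 ± 0.08). Adora1, Ptger3, Ffar4 and Npr1 did not pass (differences of 0.07, 0.28, -0.08 and 0.55). Ffar2 passed on CPM (0.42 ± 0.13) but not with the median of ratios.

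Coat and assembly proteins of the lipid droplet had few calls, with 1 of 11 higher and 3 lower. Plin3, found on small nascent droplets, rose from a median of 43.2 (range 41.6 to 51.9) to a median of 63.8 (range 55.7 to 79.1) CPM without overlap. Fitm2, an assembly factor, fell (-0.31 ± 0.09) beside Cidec and Plin1. Plin2, Plin4, Plin5 and Bscl2 did not pass on CPM, with differences of 0.42, -0.51, -0.25 and -0.09. In the caveolae list (2 of 5 higher and 1 lower, and 1 and 1 with the median of ratios), Cav1 and Cav2, the membrane coat proteins, rose by 0.37 ± 0.12 and 0.44 ± 0.11. Cav1 did not pass with the median of ratios, and Pacsin3 fell (-0.89 ± 0.19). Without CD mice 3 or 5 the call of Cav1 was lost as well (difference 0.31 to 0.34, limma adjusted p = 0.0508 to 0.0541).

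Genes of fatty acid synthesis gave calls in both directions. The carboxylases Acaca (-1.14 ± 0.19) and Acacb (-1.54 ± 0.40), which make malonyl-CoA, fell. Fasn, which builds palmitate from it, was at a median of 2371 (range 1662 to 4139) CPM in CD and a median of 3752 (range 1802 to 4268) CPM in HFD mice with no call (limma adjusted p = 0.372). Scd1, the main desaturase and the most abundant of these transcripts, was at a median of 33822 (range 28460 to 48355) CPM in CD mice. In HFD mice it was at a median of 50462 (range 34165 to 59654) CPM, with overlap and no call. Its relative Scd2 rose from a median of 63.3 (range 27.1 to 159) to a median of 760.0 (range 167 to 1262) CPM, by 3.34 ± 0.53 (limma adjusted p = 0.000428), and separated the diets. Acss2, which makes acetyl-CoA from acetate, rose by 1.23 ± 0.24, Elovl6 by 0.86 ± 0.28 and the NADPH source Me1 by 0.75 ± 0.18. Without HFD mouse 6 the call of Elovl6 was lost (difference 0.74, limma adjusted p = 0.0507). The list as a whole counted 8 higher and 4 lower of 19, beside 34.9% and 19.6% of all genes, and 8 and 5 with the median of ratios. Triglyceride synthesis counted 6 of 16 higher and 4 lower, and 4 and 4 with the median of ratios. The first acyltransferase Gpam fell from a median of 444 (range 336 to 517) to a median of 194 (range 153 to 256) CPM without overlap. Mogat1 fell (-1.18 ± 0.29) and Dgat1 (-0.73 ± 0.11). Dgat2 rose by 0.73 ± 0.18 and Mogat2 by 2.47 ± 0.51. Pck1, the enzyme of glyceroneogenesis, was at a median of 2487 (range 1131 to 3346) CPM in CD and a median of 1245 (range 697 to 4138) CPM in HFD mice, and its difference of -0.69 ± 0.43 did not pass. Genes of fatty acid uptake and activation counted 8 of 20 higher and 8 lower, and 6 and 9 with the median of ratios. Cd36, which takes up fatty acids, was higher in every HFD mouse, at a median of 4407 (range 4057 to 4991) CPM in CD and a median of 5755 (range 5098 to 6219.7) CPM in HFD mice. Its small difference of 0.36 ± 0.10 was not called with the median of ratios (limma adjusted p = 0.0619). Lpl, the lipoprotein lipase, differed by 0.18 ± 0.19 and did not pass, Fabp5 rose by 1.84 ± 0.32, and Acsm5 fell (-1.28 ± 0.30).

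Insulin signalling was among the groups with most falls. Of 31 tested genes 17 were lower and 4 higher, with a median of -0.32, beside the 19.6% of all genes called lower. Insr, the insulin receptor, fell from a median of 361 (range 306 to 402) to a median of 201 (range 144 to 277) CPM without overlap. The difference was -0.86 ± 0.15 (limma adjusted p = 0.000615). Irs2 fell from a median of 431 (range 329.8 to 532) to a median of 154 (range 109 to 299) CPM, also without overlap. Irs1, the other main docking protein, fell (-0.63 ± 0.18) with overlap. Hk2, the hexokinase that insulin induces, fell from a median of 924 (range 697 to 1121) to a median of 239.9 (range 148 to 339) CPM, a difference of -1.95 ± 0.21 (limma adjusted p = 5.99e-05). The insulin-responsive glucose transporter Slc2a4 was at a median of 213 (range 164 to 241) CPM in CD and a median of 181 (range 170.5 to 218) CPM in HFD mice and did not pass (difference -0.11 ± 0.10). The basal transporters Slc2a1 and Slc2a3 fell (-1.02 ± 0.24 and -1.20 ± 0.26). The glycolysis list, which holds Hk2, had 11 higher and 4 lower of 21 on CPM, beside 34.9% and 19.6% of all genes. With the median of ratios it had 8 and 6, beside 24.9% and 28.5%. The numbers lower were thus near the shares of all genes. Tpi1 rose from a median of 274 (range 239 to 336) to a median of 728 (range 343 to 960.1) CPM, and Hk3, a hexokinase of blood cells, by 2.00 ± 0.42.

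**Figure D3:**
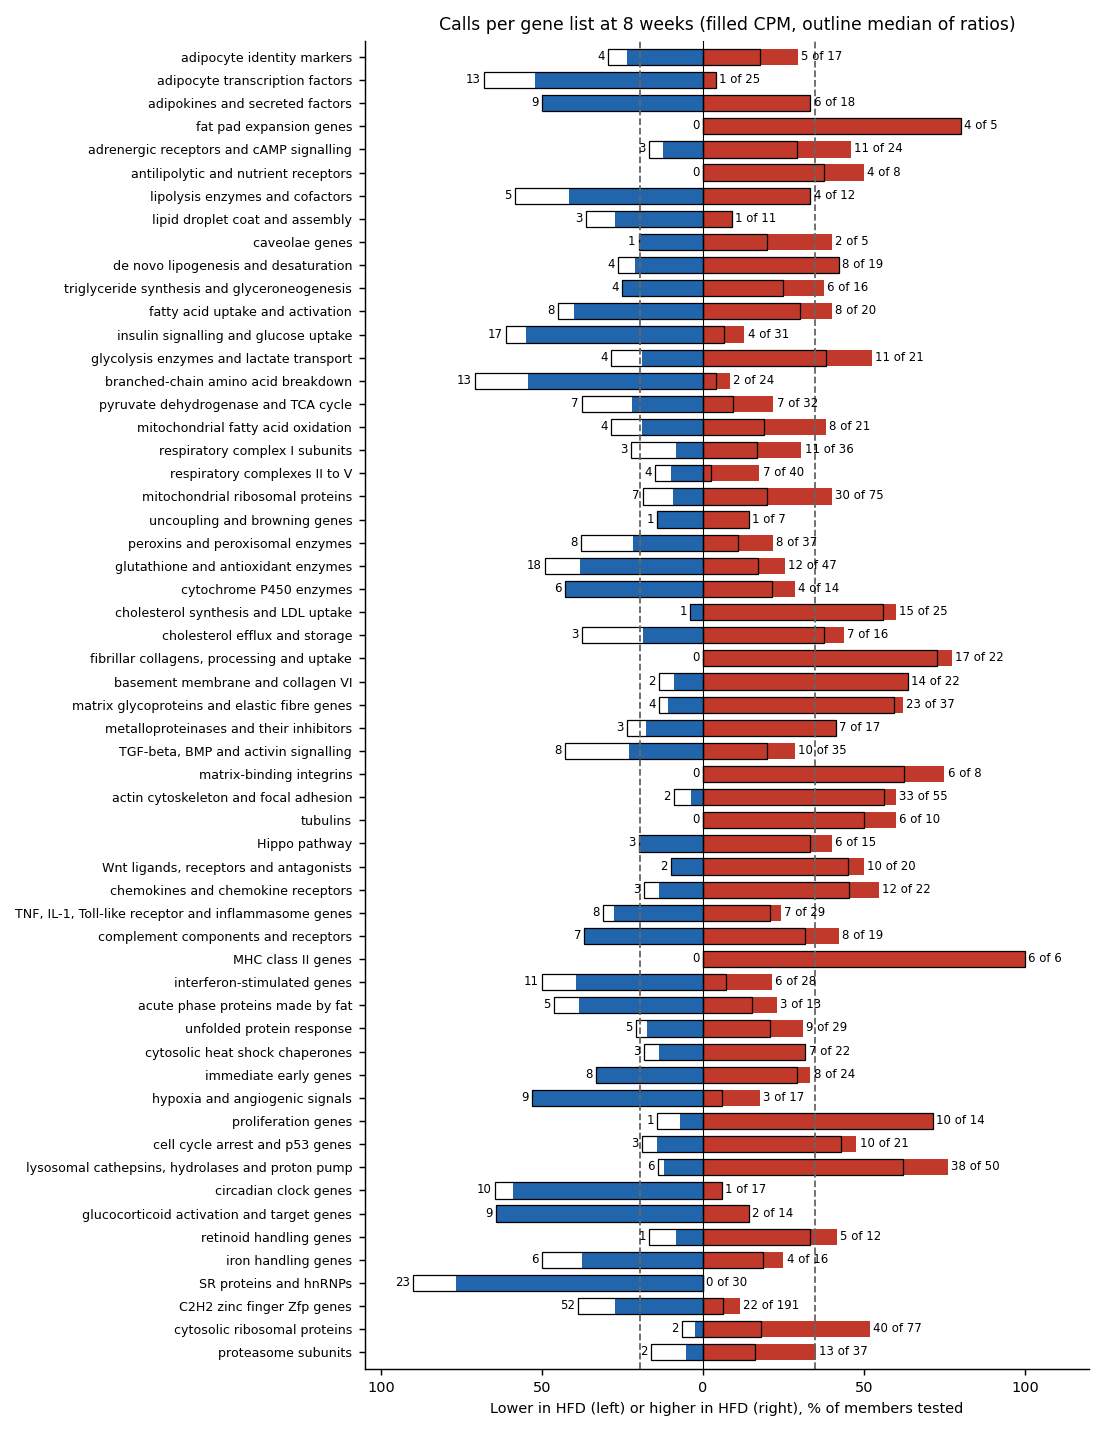
Number of genes called higher (red, to the right) and lower (blue, to the left) in HFD mice in each gene list with at least 5 members tested, as a percentage of the members tested (horizontal axis), with the counts written beside the bars. Filled bars use CPM, open outlines the median-of-ratios size factors, and dashed lines mark the shares over all 10083 genes on CPM, 34.9% higher and 19.6% lower.

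Genes of branched-chain amino acid breakdown leaned lower. Of 24 tested genes 13 were lower and 2 higher (median -0.44). Bcat2, the mitochondrial aminotransferase of the first step, fell from a median of 346 (range 316 to 429) to a median of 158 (range 134 to 244) CPM without overlap (difference -1.05 ± 0.13, limma adjusted p = 0.00014). Ivd, which acts on the leucine branch, fell (-0.86 ± 0.19). Bcat1, the cytosolic form of the first enzyme, rose from a median of 5.16 (range 3.41 to 7.66) to a median of 18.4 (range 13.4 to 36.3) CPM, the opposite direction. The E1 subunits of the branched-chain dehydrogenase, Bckdha (-0.46 ± 0.13) and Bckdhb (-0.55 ± 0.13), and its E2 core Dbt (-0.58 ± 0.13) fell.

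In the rest of mitochondrial metabolism the calls went both ways at 8 weeks. In the pyruvate dehydrogenase and TCA cycle list 7 were higher, 7 lower and 18 of 32 without a call (3 and 12 with the median of ratios). Among them were a rise of Idh3a (0.85 ± 0.09) and falls of Suclg2 (-0.83 ± 0.13) and the kinase Pdk2 (-1.02 ± 0.26). Pdk4, the kinase that fasting induces, differed by 0.56 ± 0.22 and did not pass with the median of ratios. On CPM its call was also lost without any 1 of CD mice 1, 3 or 4 or HFD mice 2, 3, 4 or 5 (difference 0.42 to 0.60, limma adjusted p = 0.0516 to 0.0997). Complex I of the respiratory chain counted 11 subunits higher and 3 lower of 36 on CPM but 6 and 8 with the median of ratios. Complexes II to V counted 7 and 4 of 40 against 1 and 6. Medians of the lists were 0.05 and 0.07 beside 0.10 over all genes, and the direction of their calls turned with the scale. Sdha, the flavoprotein of complex II, and Uqcrc2 of complex III fell on both scales (-0.34 ± 0.10 and -0.31 ± 0.09 on CPM). Ndufa11, Ndufb6 and Ndufb3 of complex I rose on both, by 0.55 ± 0.11, 0.43 ± 0.11 and 0.40 ± 0.09. Mitochondrial ribosomal proteins went from 30 higher and 7 lower to 15 and 14 of 75, with Mrps6 (1.00 ± 0.14) and Mrpl38 (-0.93 ± 0.25) as the largest moves. For fatty acid oxidation 8 of 21 were higher and 4 lower, or 4 and 6 with the median of ratios. Cpt1a, which admits long-chain fatty acids, rose from a median of 62.7 (range 60.3 to 79.3) to a median of 113 (range 99.1 to 145) CPM without overlap. Slc22a5, which imports carnitine, fell from a median of 156 (range 119 to 246) to a median of 58.5 (range 41.9 to 90.4) CPM. Acadm differed by 0.23 ± 0.06 and was not called with the median of ratios. Ucp1, the uncoupling protein of brown fat, was at most 3.41 CPM in any mouse and was not tested. Ucp2, its relative in many cells, rose by 1.62 ± 0.38, in a list of uncoupling and browning genes with 1 of 7 higher and 1 lower.

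Enzymes of foreign compound, oxygen and metal metabolism gave several of the steepest falls. Among 14 tested P450 genes 6 were lower and 4 higher, and Cyp1b1 fell from a median of 73.1 (range 38.6 to 94.6) to a median of 9.64 (range 7.24 to 23.6) CPM beside Cyp2f2 and Cyp2e1. Gpx3, the secreted glutathione peroxidase, fell from a median of 1585 (range 1437 to 2232) to a median of 504 (range 159 to 931) CPM, a difference of -2.04 ± 0.41 without overlap. The glutathione transferases Gstt2 and Gstt3 fell (-1.44 ± 0.27 and -1.45 ± 0.27). The antioxidant list as a whole had 18 lower and 12 higher of 47. Catalase (Cat) differed by -0.18 ± 0.10 and did not pass on CPM. Hmox1, which breaks down haem, fell (-1.36 ± 0.36) and Cp, the copper carrier ceruloplasmin, (-1.41 ± 0.24), in an iron list with 4 of 16 higher and 6 lower. The transferrin receptor Tfrc (0.65 ± 0.24) passed on CPM only and Hfe rose by 1.15 ± 0.23. Tfrc lost its call without any 1 of CD mice 1, 2, 3 or 5 or HFD mice 3, 4 or 6 (difference 0.49 to 0.66, limma adjusted p = 0.0556 to 0.0765). The metallothionein Mt1 fell from a median of 893 (range 733 to 1168) to a median of 435 (range 311 to 496) CPM. Its relative Mt2 fell from a median of 1293 (range 1067 to 1515) to a median of 549 (range 325 to 690.1) CPM. Peroxisomal genes counted 8 higher and 8 lower of 37 on CPM and 4 and 14 with the median of ratios. Pex3, a factor of peroxisome assembly, fell (-0.52 ± 0.11), and the thiolase Acaa1b rose (1.21 ± 0.13). Retinoid genes gave 5 rises and 1 fall of 12. Aldh1a2, which makes retinoic acid, rose by 1.32 ± 0.23, Dhrs3 by 0.67 ± 0.11 and Rara by 0.82 ± 0.15. Retsat fell (-0.46 ± 0.13), and the carrier Rbp4 gave no call (0.31 ± 0.13).

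Genes of cholesterol synthesis rose together. Of 25 tested genes 15 were higher and 1 lower, with a median of 0.65, and 14 were higher with the median of ratios, beside the 34.9% of all genes called higher. Dhcr7, a reductase of the last steps, rose by 1.62 ± 0.31. Insig1, the sterol-regulated brake of the pathway, rose from a median of 113 (range 66.7 to 146) to a median of 373 (range 151 to 484) CPM. Sqle, the squalene epoxidase, did not pass (0.44 ± 0.26). The exception was Fdft1, which commits the pathway to squalene and fell (-0.52 ± 0.09). Efflux and storage genes counted 7 of 16 higher and 3 lower, and 6 and 6 with the median of ratios. Pltp rose by 1.94 ± 0.32, Nceh1 by 2.31 ± 0.45 and Soat1 by 1.54 ± 0.34. Abca1, the efflux pump, fell (-0.46 ± 0.12), and Abcg1 did not pass (0.05 ± 0.19).

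Matrix genes rose at 8 weeks across classes. No tested member of the fibrillar collagen list fell, and 17 of 22 rose (median 0.73). Col1a1, a chain of type I collagen, rose from a median of 20.9 (range 9.46 to 41.2) to a median of 134 (range 35.9 to 350.1) CPM (difference 2.55 ± 0.49, limma adjusted p = 0.0013), with overlap. Col3a1 was at a median of 259.7 (range 146 to 398) CPM in CD and a median of 441 (range 227 to 785) CPM in HFD mice and missed the threshold (limma adjusted p = 0.0565). All 3 main chains of collagen VI, the microfibrillar collagen around adipocytes, rose without overlap. Col6a1 averaged 151 ± 44.7 CPM (SD, n = 6) in CD and 925 ± 430.0 CPM in HFD mice, and Col6a2 rose by 2.72 ± 0.38 and Col6a3 by 1.80 ± 0.31. Col4a1, of basement membranes, did not pass (0.40 ± 0.16). The basement membrane and collagen VI list had 14 higher and 2 lower of 22 (median 1.00), and the matrix glycoprotein list 23 and 4 of 37 (median 1.03). Fbln2 rose from a median of 8.49 (range 4.05 to 15.2) to a median of 75.3 (range 22.1 to 121) CPM. Fbn1, the fibrillin of elastic fibres, rose by 2.44 ± 0.41, Smoc2 by 2.11 ± 0.50 and fibronectin, Fn1, by 1.65 ± 0.45. Eln, which encodes elastin, was too low to be tested. The fibroblast and progenitor marker sums given above overlapped between the diets, as did the mural cell sums. Of 6 tested fibroblast and progenitor markers 4 were higher and 1 lower, beside 34.9% and 19.6% of all genes. With the median of ratios 2 were higher and 1 lower. Among the rises, Pdgfra rose by 1.12 ± 0.43 on CPM only and Cd34 by 1.79 ± 0.45. Pdgfra lost its call without any 1 of CD mice 1, 2, 3, 5 or 6 or HFD mice 3, 4, 5 or 6 (difference 0.95 to 1.14, limma adjusted p = 0.0644 to 0.0952). Their part in the rise of the matrix genes was not tested.

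Metalloproteinases and their inhibitors counted 7 of 17 higher and 3 lower. Timp2 rose from a median of 31.9 (range 18.4 to 55.7) to a median of 105 (range 68.9 to 187) CPM without overlap and Mmp14 and Mmp2 by 1.28 ± 0.44 and 1.28 ± 0.42. The call of Mmp14 was lost without any 1 of CD mice 1 or 3 or HFD mice 3, 4 or 6 (difference 1.08 to 1.21, limma adjusted p = 0.0525 to 0.0588) and that of Mmp2 without HFD mouse 4 (difference 1.11, limma adjusted p = 0.0512). Timp1 did not pass (-0.10 ± 0.64), with a median of 5.68 (range 3.89 to 84.5) CPM in CD mice, where the highest value was that of CD mouse 6. Of the TGF-beta superfamily, Tgfb1 rose from a median of 23.0 (range 12.2 to 25.6) to a median of 43.4 (range 32.7 to 58.8) CPM without overlap. Fstl1, which binds activin, rose 7.72-fold in mean CPM and Bmp3 4.33-fold. Inhba, an activin chain, stayed at or under 1.55 CPM and was not tested. Among receptors of the family falls were seen in Tgfbr1 (-0.62 ± 0.16) and Acvr1b (-1.35 ± 0.16). The list counted 10 higher and 8 lower of 35 and, with the median of ratios, 7 and 15. Wnt genes gave 10 rises and 2 falls of 20, beside 34.9% and 19.6% of all genes. Nkd1, an antagonist that Wnt signals induce, rose from a median of 9.29 (range 6.45 to 17.1) to a median of 43.7 (range 26.2 to 64.4) CPM and the ligand Wnt11 from a median of 3.38 (range 2.41 to 4.36) to a median of 9.34 (range 8.21 to 10.5) CPM, both without overlap. Axin2, another induced antagonist, fell (-1.07 ± 0.28). Of the integrins that bind matrix, 6 of 8 rose, including Itgb1 (0.75 ± 0.11), Itgb5 (0.64 ± 0.11), Itga1 (0.65 ± 0.12), Itga6 (0.75 ± 0.14) and Itga9 (1.08 ± 0.33). Itgav passed on CPM only (0.33 ± 0.12). It lost the call without any 1 of CD mice 2, 3 or 5 or HFD mice 3, 4 or 6 (difference 0.27 to 0.33, limma adjusted p = 0.0509 to 0.0627). Itga5 and Itga7 did not pass, with differences of 0.56 and 0.24.

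The actin cytoskeleton rose with the matrix, with 33 of 55 genes higher and 2 lower on CPM and 31 and 5 with the median of ratios. Over all genes 34.9% were higher and 19.6% lower on CPM. Acta2, smooth muscle actin, measured a median of 50.7 (range 29.6 to 177) CPM in CD and a median of 183 (range 101 to 366) CPM in HFD mice (difference 1.74 ± 0.39). Actb, the common actin, did not pass (0.15 ± 0.13). Coro1a and Fermt3, known from leukocytes, rose by 1.62 ± 0.45 and 1.57 ± 0.45. Tubulins, whose near-identical copies make single counts uncertain, were 6 of 10 higher and 0 lower. Tuba1a rose from a median of 189 (range 153 to 329) to a median of 1339 (range 375 to 2415) CPM without overlap, by 2.40 ± 0.40 (limma adjusted p = 0.000567), and Tubb2a by 1.11 ± 0.19. Tubb6 did not pass (-0.19 ± 0.15), nor did Tuba1c, Tuba4a and Tubb4b (0.15, -0.15 and 0.19). In the Hippo pathway, with 6 of 15 higher and 3 lower, Lats2, a kinase that restrains YAP, rose by 0.75 ± 0.12 and Amotl2 by 0.90 ± 0.22, and Yap1 did not pass (-0.08 ± 0.10).

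Macrophage and antigen presentation genes rose. All 6 MHC class II genes tested were higher in every HFD mouse than in any CD mouse, with a median difference of 2.00. Cd74, the invariant chain, went from a median of 154 (range 79.5 to 236) to a median of 629 (range 325 to 911) CPM. H2-Ab1 rose by 2.11 ± 0.38, H2-Aa by 1.97 ± 0.39, H2-Eb1 by 2.00 ± 0.39, H2-DMa by 1.77 ± 0.31 and H2-DMb1 by 2.46 ± 0.48. The summed macrophage markers given above were higher on the whole but overlapped between the diets, since CD mice 5 and 6 exceeded HFD mice 1, 2 and 5, and their part was not tested. Of the lipid-associated macrophage markers 10 of 11 rose, among them Trem2 from a median of 3.13 (range 1.57 to 6.58) to a median of 26.3 (range 10.1 to 102) CPM. Itgax, which encodes CD11c, rose from a median of 4.40 (range 1.95 to 8.64) to a median of 42.9 (range 19.7 to 83.8) CPM. Cd63 was the member that fell (-0.39 ± 0.11). Lysosomal genes rose in 38 of 50 cases on CPM and 31 with the median of ratios, beside 34.9% and 24.9% of all genes. Atp6v0d2, a proton pump subunit of osteoclasts and macrophages, rose by 3.04 ± 0.49, Ctss, cathepsin S of antigen presenting cells, by 2.53 ± 0.45 and Ctsk by 2.18 ± 0.33.

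Chemokines and their receptors leaned higher, with 12 of 22 higher and 3 lower (median 1.24), or 10 and 4 with the median of ratios, beside 34.9% and 19.6% of all genes. Ccl9 rose by 1.99 ± 0.51, Ccr2, the receptor of monocytes, by 1.61 ± 0.50. Ccl2, its ligand, did not pass, at a median of 289 (range 147 to 394) CPM in CD and a median of 191 (range 159 to 361) CPM in HFD mice. In the list of TNF, interleukin-1 and Toll-like receptor genes, with 7 of 29 higher and 8 lower, Tnf rose by 1.71 ± 0.59 with overlap, Tlr13 by 2.03 ± 0.49 and Tlr8 by 1.89 ± 0.43. Without any 1 of CD mice 1, 2 or 3 or HFD mice 3, 4 or 6 the call of Tnf was lost (difference 1.45 to 1.66, limma adjusted p = 0.0509 to 0.0625). The interleukin-1 receptor Il1r1 fell from a median of 204 (range 156 to 515) to a median of 59.8 (range 26.8 to 197) CPM and its adaptor Myd88 (-1.09 ± 0.18). Il1b did not pass (2.04 ± 0.95), with a median of 4.76 (range 1.14 to 204) CPM in CD mice and a median of 41.7 (range 19.8 to 62.7) CPM in HFD mice. CD mouse 6 was the highest. Without CD mouse 6 its difference was 2.92 (limma adjusted p = 0.00223). Acute phase proteins counted 3 of 13 higher and 5 lower. Saa3 and Lcn2 were likewise carried by CD mouse 6 in the CD group, whose mice ranged over 14.4 to 2494 and 6.53 to 1551 CPM, and gave no call. Lbp, which binds endotoxin, rose from a median of 217 (range 119.9 to 252) to a median of 608 (range 277 to 853) CPM without overlap. The complement list counted 8 of 19 higher and 7 lower, and 6 and 7 with the median of ratios. Serping1 and C1qb rose by 1.79 ± 0.44 and 1.72 ± 0.49, Cfd fell, and C3 did not pass (-0.58 ± 0.45).

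Interferon-stimulated genes leaned the other way from the macrophage markers. Of 28 tested, 11 were lower and 6 higher in HFD mice, beside 19.6% and 34.9% of all genes, or 14 and 2 with the median of ratios. The deepest falls were the immunity-related GTPases, which interferon-gamma induces in many cells. Irgm1 fell from a median of 199 (range 121 to 409) to a median of 51.0 (range 22.7 to 71.0) CPM (difference -2.29 ± 0.34, limma adjusted p = 0.000297). Iigp1 fell from a median of 255 (range 138 to 458) to a median of 53.3 (range 36.5 to 117) CPM and Igtp from a median of 60.9 (range 49.2 to 144) to a median of 19.4 (range 12.6 to 45.7) CPM. No HFD mouse reached the lowest CD mouse for any of the 3, and these families hold close copies whose reads the counting may divide. Cxcl9, a chemokine of the same induction, fell from a median of 237 (range 195 to 526) to a median of 55.6 (range 34.1 to 81.6) CPM (-2.25 ± 0.28). Cxcl10 fell from a median of 338 (range 272 to 409) to a median of 71.9 (range 33.4 to 113) CPM (-2.37 ± 0.25), and neither overlapped. Further members, chosen after their values were seen, were the transcription factor Irf1, at 425 to 851 CPM in CD and 144 to 461 CPM in HFD mice, Irgm2 (-1.48 ± 0.25) and the guanylate-binding proteins Gbp2 (-1.18 ± 0.31) and Gbp7 (-1.16 ± 0.25). Also lower were the signal transducers Stat2 (-1.05 ± 0.18) and Irf9 (-0.55 ± 0.11) and the RNA sensor Ifih1 (-0.38 ± 0.08). The 6 that rose were Ifit2, Rsad2, Ifi27, Ifi35, Bst2 and Dhx58, with differences from 0.37 to 1.55, of which Ifit2 and Ifi27 held with the median of ratios. Each of the other 4 also lost its call without 1 mouse. These were CD mice 1, 2, 3 or 6 or HFD mice 3, 4, 5 or 6 for Rsad2 (difference 0.73 to 0.95, limma adjusted p = 0.0517 to 0.0871) and CD mouse 3 or HFD mice 3, 4 or 6 for Ifi35 (difference 0.38 to 0.41, limma adjusted p = 0.0513 to 0.0555). They were CD mice 1, 2, 3 or 5 or HFD mice 3, 4, 5 or 6 for Bst2 (difference 0.36 to 0.49, limma adjusted p = 0.0522 to 0.0943) and CD mice 1, 2 or 4 or HFD mice 3, 4 or 6 for Dhx58 (difference 0.31 to 0.36, limma adjusted p = 0.0529 to 0.0719). Irf7, the regulator of type I interferon, fell (-0.31 ± 0.12) with overlap. Leaving out any 1 of CD mice 1 or 5 or HFD mice 1, 3, 4 or 5 ended that call (difference -0.31 to -0.23, limma adjusted p = 0.0629 to 0.0837).

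Promoter windows of 4 of the genes that fell are shown, 250 bases before to 50 after the start (RefSeq, GRCm38.p6), since they hold letters that interferon-responsive factors recognise. Capitals mark matches on either strand to 2 motifs. The first, the core of the interferon-stimulated response element, is GAAA followed by any 2 bases and another GAAA, and the second, TTCNNNGAA, is the gamma-activated site. No match overlapped another. Igtp (chr11:58199306-58199605, plus strand), Gbp7 (chr3:142530086-142530385, plus strand), Irf1 (chr11:53769764-53770063, plus strand, the first of 2 starts) and Cxcl10 (chr5:92348840-92349139, minus strand) read as follows.

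Igtp: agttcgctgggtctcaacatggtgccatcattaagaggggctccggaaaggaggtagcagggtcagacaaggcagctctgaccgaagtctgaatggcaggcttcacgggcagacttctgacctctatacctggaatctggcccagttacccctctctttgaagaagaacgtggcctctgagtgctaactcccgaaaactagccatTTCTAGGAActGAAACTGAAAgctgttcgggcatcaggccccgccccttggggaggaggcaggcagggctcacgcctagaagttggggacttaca

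Gbp7: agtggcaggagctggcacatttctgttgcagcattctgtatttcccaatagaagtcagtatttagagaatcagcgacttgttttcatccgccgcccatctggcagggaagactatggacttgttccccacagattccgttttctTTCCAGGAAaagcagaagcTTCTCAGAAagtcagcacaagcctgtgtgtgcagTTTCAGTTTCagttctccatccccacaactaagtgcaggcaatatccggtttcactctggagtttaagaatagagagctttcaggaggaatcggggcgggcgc

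Irf1: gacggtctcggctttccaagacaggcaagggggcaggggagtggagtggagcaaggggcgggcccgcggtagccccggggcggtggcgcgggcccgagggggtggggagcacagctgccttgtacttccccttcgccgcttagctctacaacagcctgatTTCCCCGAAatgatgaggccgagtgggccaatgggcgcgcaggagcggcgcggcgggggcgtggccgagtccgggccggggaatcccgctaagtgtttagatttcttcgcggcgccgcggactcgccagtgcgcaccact

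Cxcl10: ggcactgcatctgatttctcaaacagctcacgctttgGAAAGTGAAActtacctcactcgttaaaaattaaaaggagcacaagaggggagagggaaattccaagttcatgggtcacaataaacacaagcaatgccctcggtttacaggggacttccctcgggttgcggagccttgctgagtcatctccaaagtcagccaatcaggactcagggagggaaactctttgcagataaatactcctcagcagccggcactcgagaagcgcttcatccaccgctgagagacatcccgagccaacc

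The response element matched in 1 place in Igtp, Gbp7 and Cxcl10, and the gamma-activated site in 1 place in Igtp and Irf1 and in 2 in Gbp7. Among the 10 falling members of the interferon list that have a window, 7 held the first motif and 4 the second, among the 4 rising members 2 and 3, and among the 8 without a call 5 and 0. Of all 27025 genes with a window 3.99% held the first and 9.55% the second. These are matches of letters and were not tested as binding sites.

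**Figure D4:**
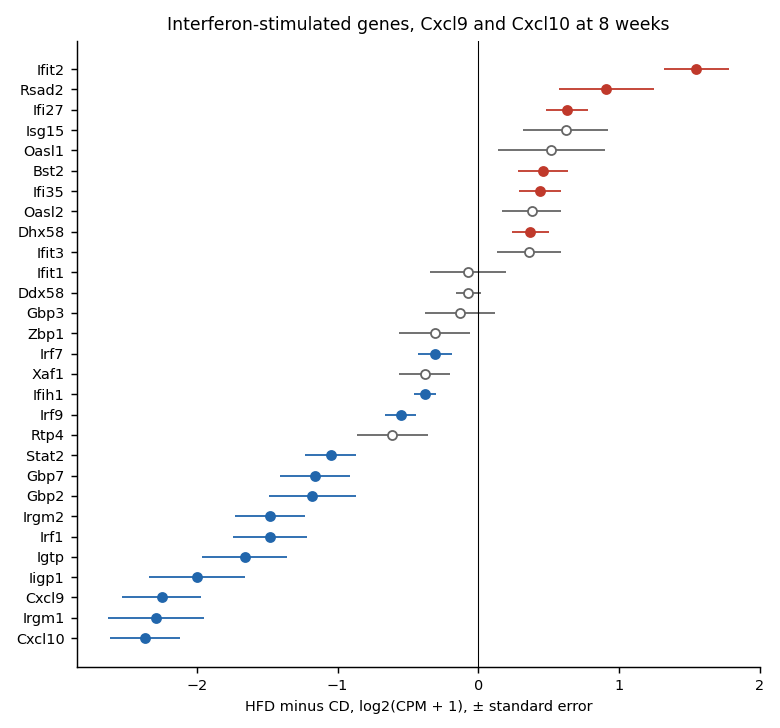
Difference between the diets at 8 weeks (HFD minus CD, log2 scale, horizontal axis) with its standard error for 27 of the 28 tested interferon-stimulated genes and for Cxcl9 and Cxcl10, ordered by size. Filled points passed the test and open points did not, and the falls reach -2.37 (Cxcl10) and the rises 1.55 (Ifit2).

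Stress genes gave mixed counts. In the unfolded protein response 9 were higher, 5 lower and 15 of 29 without a call, or 6 and 6 with the median of ratios. The chaperone Hspa5 and the death factor Ddit3 did not pass (0.04 ± 0.12 and 0.17 ± 0.10). Xbp1, a transducer of the response, fell from a median of 393 (range 365 to 487) to a median of 201 (range 151 to 264) CPM without overlap. Asns, a target of ATF4, fell from 136 ± 10.7 CPM (SD, n = 6) in CD to 59.3 ± 19.9 CPM in HFD mice, also without overlap. Among cytosolic chaperones, with 7 of 22 higher and 3 lower, Cryab rose by 1.61 ± 0.26, Bag3 fell (-1.03 ± 0.16) and Hspa8 did not pass on CPM (-0.08 ± 0.07). Immediate early genes split evenly, 8 higher and 8 lower of 24. Fos rose from a median of 401 (range 261 to 444) to a median of 989.7 (range 441 to 1619) CPM and Nr4a1 without overlap (1.05 ± 0.17). Hypoxia and angiogenic genes leaned lower, 9 of 17 against 3 higher (median -0.35). Hif1a, the oxygen-sensed factor, fell from a median of 254 (range 243 to 336) to a median of 137 (range 110.1 to 177) CPM. Angpt1, which steadies vessels, fell from a median of 30.5 (range 29.7 to 37.2) to a median of 9.80 (range 7.34 to 17.4) CPM. Neither overlapped, and Vegfa, the vessel growth factor, fell (-0.60 ± 0.19). Proliferation genes rose in 10 of 14 cases, at low levels, for example Mki67 from a median of 3.45 (range 0.897 to 14.2) to a median of 22.0 (range 8.29 to 45.7) CPM. Cell cycle arrest and p53 genes counted 10 of 21 higher and 3 lower, beside 34.9% and 19.6% of all genes. Rises there were those of the arrest gene Cdkn1a (1.58 ± 0.28), the p53 target Pmaip1 (1.42 ± 0.33) and the cyclin Ccnd1 (1.97 ± 0.37), all 3 without overlap. The macrophage marker sums given above moved beside these genes as well, and their part was not tested.

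Genes of the circadian clock leaned lower. Of 17 tested 10 were lower and 1 higher, beside 19.6% and 34.9% of all genes, with the median at -0.78. The output factor Dbp fell from a median of 62.7 (range 35.3 to 104) to a median of 19.9 (range 13.6 to 35.5) CPM and its relative Hlf from a median of 16.4 (range 8.80 to 20.5) to a median of 4.48 (range 3.35 to 6.59) CPM. Arntl, the core activator, differed by 0.58 ± 0.24 and did not pass, and Clock (0.40 ± 0.09) was the 1 gene that rose. Mice were fasted and sampled in the morning according to the methods, and the hour of each mouse was not given in the sources used here. Glucocorticoid genes fell in 9 of 14 cases and rose in 2, beside 19.6% and 34.9% of all genes. Hsd11b1, which regenerates the active hormone, fell from a median of 257 (range 223 to 263) to a median of 104 (range 67.6 to 162) CPM without overlap, and the target Fkbp5 (-1.09 ± 0.22). Tsc22d3, another target, rose by 0.80 ± 0.22.

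Splicing factors leaned lower. Of 30 tested SR proteins and hnRNPs, 23 were lower, 0 higher and 7 without a call, and with the median of ratios 27 were lower. The diets did not overlap for 14 of them, all lower in HFD mice, beside 7.37% of all genes. Srsf4 fell from a median of 61.9 (range 58.3 to 82.7) to a median of 33.9 (range 28.2 to 47.6) CPM (difference -0.89 ± 0.13, limma adjusted p = 0.000247). Hnrnpu, a nuclear scaffold protein, fell from a median of 603 (range 548 to 665) to a median of 334 (range 258 to 449) CPM. Lower were also Hnrnph1 (-0.80 ± 0.17) and Srsf3 (-0.41 ± 0.08). The zinc finger Zfp genes leaned the same way, 52 lower and 22 higher of 191, beside 19.6% and 34.9% of all genes. Their falls were led by Zfp697 (-1.54 ± 0.34) and Zfp619 (-1.38 ± 0.21), and Zfp385a was the largest rise (1.23 ± 0.20). Cytosolic ribosomal proteins counted 40 higher and 2 lower of 77 on CPM, but 14 and 5 with the median of ratios, at a median of 0.18. Proteasome subunits counted 13 and 2 against 6 and 6 of 37. Ribosomal proteins have many near-identical pseudogenes, so their counts are uncertain.

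Whether the 8 week response was particular to that time was tested as the change of the diet difference at 20 or 34 weeks, over 10343 genes in all 38 mice. At 20 weeks 464 genes (4.49%) had a different diet difference from that at 8 weeks, 291 with a higher value (2.81%) and 173 with a lower one (1.67%). At 34 weeks 2982 genes (28.8%) did, 1342 with a higher and 1640 with a lower value. The number at 20 weeks depends on the fit, with 4263 genes under array weights and 114 under a block of the replicate numbers. It also depends on single mice, from 210 without HFD mouse 6 to 548 without HFD mouse 3. It was 287 without CD mouse 1, 280 without CD mouse 3, 239 without CD mouse 6, 250 without HFD mouse 1 and 255 without HFD mouse 4. Of the 3512 genes called higher at 8 weeks and tested here, 1225 had a lower diet difference at 34 weeks and 19 a higher one. Of the 1956 called lower 876 had a higher and 11 a lower difference. Both tests share the 8 week mice, and a gene chosen for its call at 8 weeks had to be large there, so these counts describe the genes and support no direction.

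Several genes that led the 8 week changes had smaller diet differences at 34 weeks, and the levels of both diets entered that change. Pcolce2 had differences of 4.15 at 8, 3.34 at 20 and 0.70 at 34 weeks, a change from 8 to 34 weeks of -3.44 ± 0.71 (limma adjusted p = 0.000581). Sfrp5 went from 3.67 and 3.97 to 0.57 (change -3.10 ± 0.71) and Cyp2f2 from -4.87 and -5.38 to -0.85 (change 4.02 ± 0.63). Scd2 turned from 3.34 at 8 weeks to -1.62 at 34 weeks (change -4.96 ± 0.78, limma adjusted p = 4.51e-05) and Acss2 from 1.23 to -2.30. Cdkl4, a protein kinase, went from 2.67 to -0.76, and its difference at 34 weeks did not pass (limma adjusted p = 0.219). Cyp1b1 turned from -2.44 to 0.94 and Gnal, a G protein alpha subunit, from -1.65 to 1.82. Levels of the CD mice differed between the times as well as those of the HFD mice. From 8 to 34 weeks the median of Pcolce2 went from 2.23 to 20.5 CPM in CD and from 77.2 to 26.4 CPM in HFD mice. That of Sfrp5 went from 27.6 to 198 CPM in CD and from 427 to 255 CPM in HFD mice. For Cyp2f2 it went from 73.9 to 7.93 CPM in CD and from 2.13 to 4.48 CPM in HFD mice, so that the larger move was in CD mice. Scd2 went from 63.3 to 905 CPM in CD and from 760.0 to 234 CPM in HFD mice and Acss2 from 80.4 to 283 CPM in CD and from 224 to 74.0 CPM in HFD mice, with the diets moving in opposite directions. Cyp1b1 went from 73.1 to 4.98 CPM in CD and from 9.64 to 11.9 CPM in HFD mice. Gnal, by contrast, went from 21.2 to 16.9 CPM in CD and from 7.62 to 49.6 CPM in HFD mice. Levels of one diet were not tested between times.

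Several lists differed between the times as groups of calls. Over all 10343 genes tested, 1640 had a lower and 1342 a higher diet difference at 34 than at 8 weeks. In fatty acid synthesis 12 of 19 genes had a lower diet difference at 34 than at 8 weeks, and the median went from 0.33 to -0.67 and -1.33 over 8, 20 and 34 weeks. Complex I subunits were lower in 19 of 36 cases at 34 against 8 weeks, with medians of 0.05, -0.36 and -0.44, and cholesterol synthesis in 15 of 25, with medians of 0.65, 0.50 and -0.26. SR proteins and hnRNPs had a higher diet difference at 34 weeks in 21 of 30 cases (medians -0.31, -0.08 and 0.20). Of the interferon-stimulated GTPases, Irgm1 changed by 2.21 ± 0.42, Iigp1 by 2.72 ± 0.66 and Igtp by 1.90 ± 0.56. The median of Irgm1 went from 199 to 31.4 CPM in CD and from 51.0 to 27.9 CPM in HFD mice, and that of Iigp1 from 255 to 31.0 CPM in CD and from 53.3 to 34.3 CPM in HFD mice. The 6 MHC class II genes had medians of 2.00, 2.02 and 1.86. Over all genes the medians were 0.11, 0.14 and 0.07.

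Among genes called at 8 weeks, those with the largest changes between 8 and 20 weeks included several known from macrophages. Genes without a call at 8 weeks were not ranked, though 198 of them had a changed diet difference. Retnla, a marker of alternatively activated macrophages, had a diet difference of 1.79 at 8 and -1.37 at 20 weeks (change -3.16 ± 0.76, limma adjusted p = 0.0197). The differences were 2.01 and -0.49 for Mgl2, a lectin of such macrophages, and the latter did not pass (limma adjusted p = 0.272). They were 1.54 and -1.74 for the lectin Cd209d, and 1.04 and -1.74 for Cd209b, whose rise at 8 weeks was called on CPM only. That rise of Cd209b was not called without any 1 of CD mice 1, 2, 3 or 6 or HFD mice 1, 2, 3, 4 or 6 (difference 0.88 to 1.11, limma adjusted p = 0.0554 to 0.102). In the other direction Ctsk went from 2.18 to 5.08 (change 2.90 ± 0.86, limma adjusted p = 0.0469). Zranb3, a DNA repair helicase, went from 1.17 to 3.83 (limma adjusted p = 0.0268 for the change). C7, a terminal complement component, went from -1.29 to 1.56 and Gnal to 1.95. Calls of single genes between times were not checked with 1 mouse left out. At 8 weeks Retnla stood at a median of 77.5 (range 41.9 to 177) CPM in CD and a median of 280.3 (range 193 to 673) CPM in HFD mice without overlap. Mgl2 was at a median of 5.80 (range 3.60 to 13.6) and a median of 30.3 (range 17.6 to 60.3) CPM. At 20 weeks the medians were 175 CPM in CD and 47.0 CPM in HFD mice for Retnla and 12.8 and 6.23 CPM for Mgl2. From 8 to 20 weeks the median of Ctsk went from 7.07 to 5.87 CPM in CD and from 28.1 to 352 CPM in HFD mice.

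**Figure D5:**
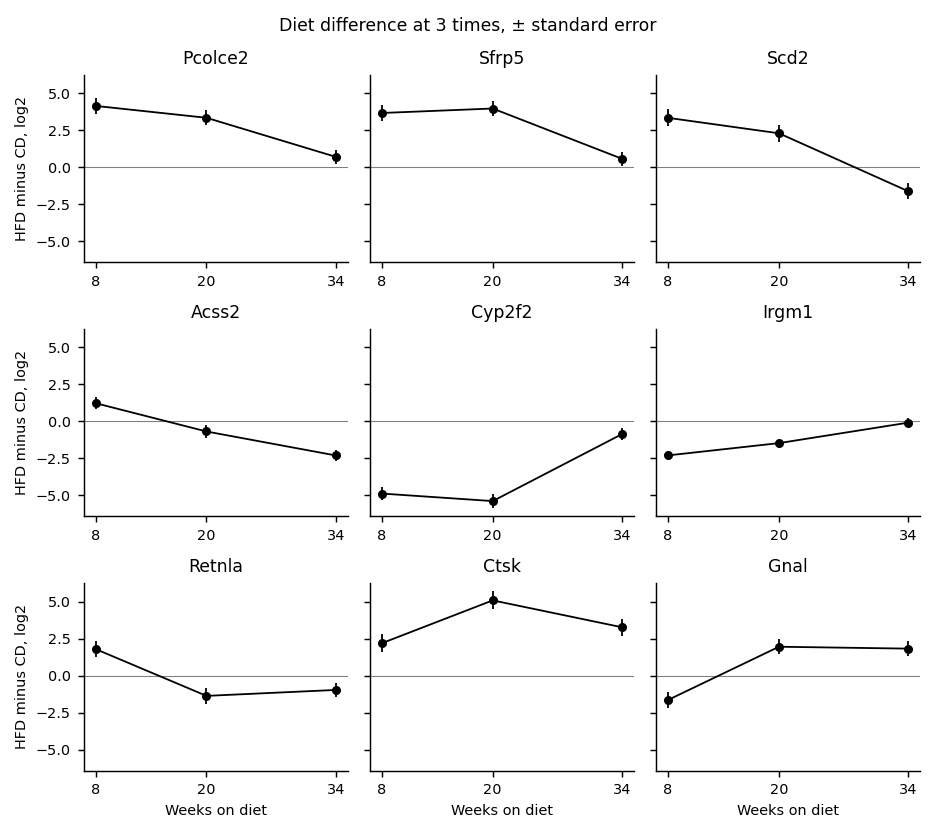
Difference between the diets (HFD minus CD, log2 scale, vertical axis) at 8, 20 and 34 weeks (horizontal axis) with standard errors from the fit of all 38 mice, for 9 genes that changed between the times. At 34 weeks Pcolce2, Sfrp5, Cyp2f2 and Irgm1 lie closer to 0 than at 8 weeks and Scd2 lies below it. The points of Acss2 and Retnla are below 0 from 20 weeks on. Those of Acss2 at 20 weeks and Retnla at 34 weeks did not pass (limma adjusted p = 0.161 and 0.114). Ctsk and Gnal increase from 8 to 20 weeks.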

How the data were processed

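RNA of perigonadal adipocytes from 38 male mice was sequenced, and the 12 mice fed for 8 weeks, 6 on CD and 6 on HFD, form the comparison reported here. The deposited values were CPM, made by the authors from gene counts scaled to a sum of 1000000 with 1 column a mouse after merging 3 technical replicates. STAR 2.5 or 2.5.2b and Subread 1.5.1 (featureCounts) are named in the submitters' processing notes, where edgeR and limma also appear. The strand setting of the counting is not given in the sources used here. Low values were whole multiples of 1 read in 100% of cases (tolerance 0.1 reads), so reads were recovered for totals and for alternative tests, by which edgeR called 5293 genes and DESeq2 5549. Intervals from depth cover counting error only.

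Genes with a mean log2(CPM + 1) above 2 over the 12 mice (10083) were fitted in limma 3.58.1 (R 4.3.3) with the mean-variance trend, two-sided, and called at a Benjamini-Hochberg adjusted p under 0.05. Changes of the diet difference between times were tested as interactions over 6 groups of 38 mice. Fits were tested on simulated data. Alternatives used other pseudocounts, filters, size factors (edgeR 4.0.16, DESeq2 1.42.0), count tests, weights, a replicate block, and left out each 8 week mouse. The study's labels do not say whether their numbers pair the mice, and the main fits used no pairing. Coordinates are those of RefSeq genes on GRCm38.p6, matched by gene ID for 93.5% of the 29132 genes, and some listed genes that did not match were not analysed here.

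The members and the gene lists were chosen with earlier results of these data known. Named genes were the 10 largest called rises and falls without overlap whose higher group had a mean of at least 10 CPM, the 5 largest called gains and losses in mean CPM, key genes and the 3 called members with the largest change in each list, all members of lists with at most 12 tested, and the 4 largest interactions in each direction for 20 and 34 weeks. Genes named beyond that rule were chosen after their values were seen: Acaca, Acvr1b, Axin2, Bckdha, Bckdhb, Bst2, Ccr2, Cd34, Cd63, Clock, Dbt, Dgat1, Dhx58, Elovl6, Fdft1, Fkbp5, Gbp2, Gbp7, Ifi27, Ifi35, Ifih1, Ifit2, Irf1, Irf9, Irgm2, Itgax, Klf2, Me1, Myd88, Pdgfra, Rsad2, Slc2a1, Slc2a3, Stat2, Tgfbr1, Trem2 and Tsc22d3. A few genes that the rule names are not reported here.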

Additional observations from a re-analysis of the deposited data

Results flagged for a closer look

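Among 552 groups of 6 mice checked, those of each gene named above in each diet on the log2(CPM + 1) scale, 27 had a highest or lowest mouse whose gap to the next, divided by the range of the group, was above Dixon's critical value, where chance gives about 1 in 20. CD mouse 6 was the mouse in 9 of them. It was highest for Serping1 (0.760 of the range), Hif1a (0.694), Chl1 (0.687), Itgav (0.676), Cxcl9 (0.656), Timp1 (0.644) and Cp (0.639), and lowest for Hsd11b1 (0.814) and Mgll (0.646). CD mouse 1 was highest for Igtp (0.683), Irgm2 (0.632) and Plin3 (0.632), CD mouse 3 was highest for Socs1 (0.699) and lowest for Tgfb1 (0.634), CD mouse 5 was highest for Tuba4a (0.675) and Pon1 (0.648), CD mouse 4 was highest for Mmp2 (0.677) and CD mouse 2 was lowest for Acaa1b (0.686). HFD mouse 2 was lowest for Cav1 (0.800), Tubb2a (0.694) and Cryab (0.629) and highest for Abca1 (0.707) and Irf1 (0.674), HFD mouse 3 was lowest for Axin2 (0.665) and highest for Cd63 (0.638), HFD mouse 5 was lowest for Cat (0.655) and HFD mouse 6 was highest for Cd209d (0.642).

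Diet differences that changed between 8 and 34 weeks (limma interaction, log2 scale, 34 minus 8 weeks) were those of Scd2 (-4.96), Cyp2f2 (4.02), Acss2 (-3.53), Gnal (3.47), Pcolce2 (-3.44), Cdkl4 (-3.43), Cyp1b1 (3.38), Sfrp5 (-3.10), C7 (2.96), Retnla (-2.76), Iigp1 (2.72), Cd209d (-2.67), Mgl2 (-2.48), Cd209b (-2.43), Zranb3 (2.41), Irgm1 (2.21) and Igtp (1.90). Between 8 and 20 weeks the diet difference changed for Gnal (3.59), Cd209d (-3.28), Retnla (-3.16), Ctsk (2.90), C7 (2.86), Cd209b (-2.78), Zranb3 (2.66), Mgl2 (-2.50) and Cyp1b1 (1.86). All of these share the same 8 week mice.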

How the results depend on the processing

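At 8 weeks 5499 genes were called, and the count stayed within 1.5 times under every alternative of the test, filter, pseudocount and scaling that was run. It was 5293 with edgeR's quasi-likelihood test, 5549 with DESeq2 and 5405 with reads thinned to equal depth, an alternative chosen after seeing the data. A 2-fold minimum left 1062 genes, 804 higher and 258 lower, by its construction. Without 1 mouse each the counts ranged from 4676 to 5847 in all, from 3034 to 3707 higher and from 1612 to 2140 lower. Of 233 called genes named above, 212 kept call and direction without any 1 mouse, and 21 lost the call without at least 1: Adra1d, Adrb3, Apoe, Bst2, Cav1, Cd209b, Dhx58, Elovl6, Ifi35, Irf7, Itgav, Mmp14, Mmp2, Pdgfra, Pdk4, Plin1, Retn, Rsad2, Tfrc, Tnf and mt-Rnr1. With TMM or median-of-ratios size factors 14 lost it. Fitted with all 6 groups together 27 lost it, with no filter on low values 16, with edgeR's test 12 and with DESeq2 8. At 8 weeks in the fit behind the interactions, Cidec, Abca1, Pnpla3, Fitm2, Uqcrc2 and Ndufb3 were among those that did not pass (limma adjusted p = 0.0516 to 0.0931). No named gene that was called in either fit changed sign, and genes without a call were compared by their side of the threshold only. Interactions at 20 weeks were the least steady, 464 genes against 4263 with array weights, and 210 to 548 without 1 mouse each. Those at 34 weeks ranged from 2538 to 3063 without 1 mouse each, and came to 4106 with array weights. With a replicate block of the label numbers 5208 genes were called at 8 weeks, 114 at 20 and 2876 at 34 weeks, the cause of which was not tested. Whether the numbers pair the mice is not given in the labels. Deviations of same-numbered CD and HFD mice correlated at 0.295, 0.24, -0.286, 0.161, -0.263 and 0.223, and 1 of 6 correlated best with its own number. These 6 values are too few to decide whether the numbers pair the mice. Depth limits statements on genes under about 1 CPM, where a mouse has few reads.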
